A study of Mus musculus with 24 samples.

Results

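Expression of 6 lipid droplet coat genes, Plin2, Plin3, Plin4, Plin5, Hsd17b13 and Hilpda, was followed in mouse liver. They were chosen by gene symbol from the 41388 genes in each deposited file, and all 6 passed the limit on low counts. Livers came from 4 groups of male mice on a C57BL/6J background, each with 5 mice sequenced singly and 1 library of RNA pooled from those mice. Adn-Lpin1-/- mice carry floxed Lpin1 alleles and a Cre recombinase driven by the adiponectin promoter, so that lipin 1, an enzyme that makes diacylglycerol from phosphatidic acid, is lost in adipocytes. WT mice were littermates with the floxed alleles and no Cre. Each genotype received a low-fat diet (LFD, 10% fat) or a high-fat diet (HFD, 60% fat) from 8 weeks of age, for 16 weeks by the sample labels and 5 weeks by the methods of the paper, and all mice were fasted for 4 hours before the livers were taken. Because Lpin1 was deleted in adipocytes, liver Lpin1 cannot check the genotype labels.

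A lipid droplet is a core of triglyceride and cholesteryl ester under a single layer of phospholipid, and the proteins bound to that layer decide how readily lipases reach the core. Perilipins are the best known of these proteins. Plin1 and Plin4 are mostly adipocyte perilipins, Plin2 is the main perilipin of hepatocytes, Plin3 is found in most cells and moves from the cytosol onto newly formed droplets, and Plin5 is a perilipin of oxidative tissues that brings droplets to mitochondria. Hsd17b13 is a droplet-bound dehydrogenase found chiefly in hepatocytes, and Hilpda, a hypoxia-inducible protein, inhibits the lipase ATGL (gene Pnpla2).

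Total counts of the 20 mice ranged from 36260187 to 81072794. They differed by group, at 36260187 to 45999456 for WT and 51095146 to 61435897 for Adn-Lpin1-/- mice fed the LFD. On the HFD they were 54036184 to 62249701 for WT and 57550362 to 81072794 for Adn-Lpin1-/- mice. Raw counts given below are not scaled for this. Levels are in CPM (counts scaled to a common library size) on library sizes scaled by the TMM method of edgeR, given as mean ± SD, and levels of different genes are compared only as CPM per kilobase of exon. Genes were tested by the quasi-likelihood method of edgeR and are termed called where p, adjusted by Benjamini-Hochberg over 13052 genes, was at or below 0.05. In whole liver, fewer cells of a type and less RNA per cell cannot be told apart.

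Plin4 was the only one of the 6 genes called between genotypes, and it was higher in Adn-Lpin1-/- livers on both diets. On the LFD, the 5 WT livers held 9.73, 5.47, 15.1, 18.03 and 21.1 CPM of Plin4, and the 5 Adn-Lpin1-/- livers 51.0, 77.1, 31.4, 104 and 112 CPM. The groups did not overlap, and the lowest Adn-Lpin1-/- liver lay above the highest WT liver. The difference was 5.41-fold (95% interval 2.76 to 10.6, log2 fold change 2.44, standard error 0.47, adjusted p = 0.00192 from edgeR). On this diet 1 of the 6 genes was called, where 14.4% of all tested genes were called and 6.27% were called higher. Only Plin4 of the 6 had groups that did not overlap, against 10.1% of all tested genes.

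On the HFD, Plin4 was 29.4, 14.2, 21.01, 36.5 and 8.18 CPM in the WT livers and 161, 130, 59.1, 78.6 and 36.8 CPM in the Adn-Lpin1-/- livers. The lowest Adn-Lpin1-/- liver lay just above the highest WT liver, and the spread within each group was wide. The difference was 4.26-fold (95% interval 2.20 to 8.23, log2 fold change 2.09, standard error 0.46, adjusted p = 0.00446 from edgeR). Again 1 of the 6 genes was called, where 18.6% of all tested genes were called and 9.87% were called higher. Non-overlapping groups were found for 11.4% of all tested genes on this diet and, of the 6, for Plin4 alone. By log2 fold change Plin4 ranked 15 on the LFD and 27 on the HFD, of 13052 genes. The pooled libraries, which hold the RNA of the same mice, gave 14.7 CPM for WT LFD, 20.99 for WT HFD, 72.3 for Adn-Lpin1-/- LFD and 90.6 for Adn-Lpin1-/- HFD, each inside the range of its mice.

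**Figure D1:**
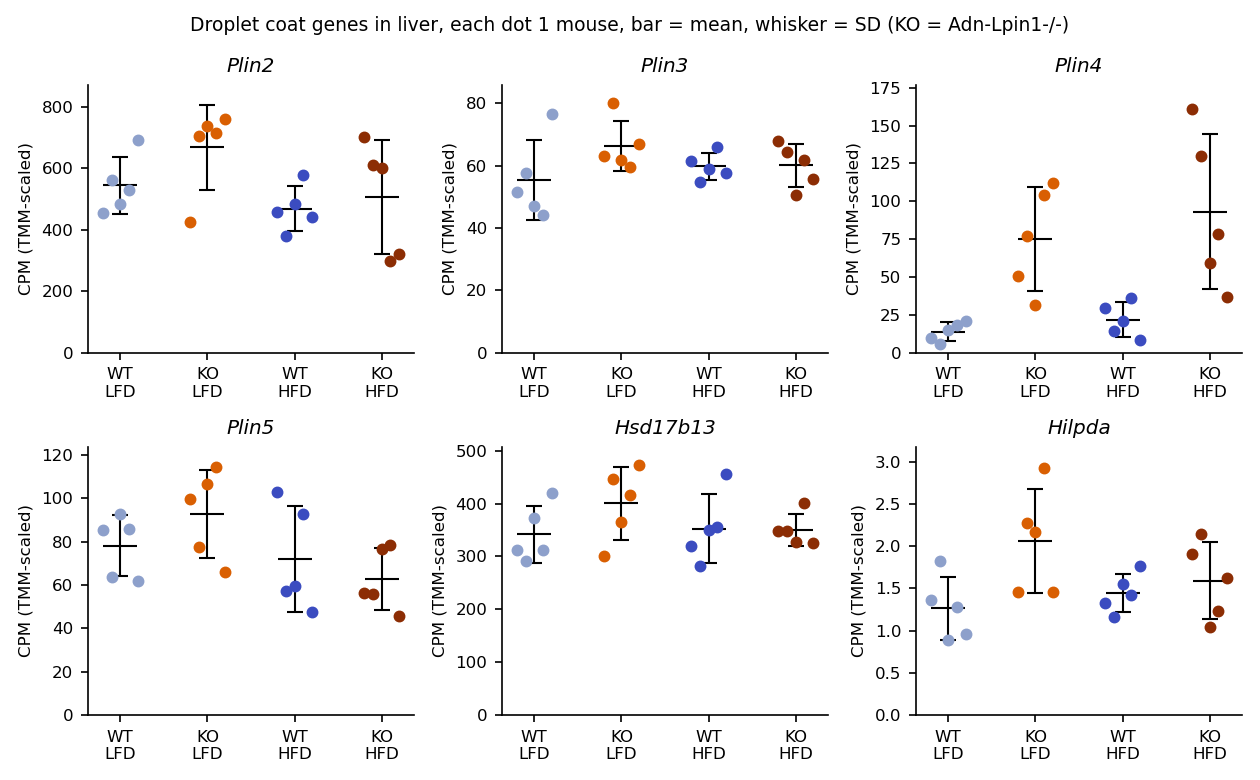
Level in CPM (linear axes from 0) of each gene in each of the 4 groups, 1 dot per mouse, with the mean as a bar and the SD as a whisker (n = 5, KO stands for Adn-Lpin1-/-). Only for Plin4 do the Adn-Lpin1-/- dots lie wholly above the WT dots on the same diet, between 31.4 and 112 CPM against 5.47 to 21.1 on the LFD and between 36.8 and 161 against 8.18 to 36.5 on the HFD.

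Within each group, Plin4 had the widest range of the 6 genes. Its highest mouse was 3.87 times its lowest for WT and 3.57 times for Adn-Lpin1-/- mice fed the LFD, and 4.46 times for WT and 4.38 times for Adn-Lpin1-/- mice fed the HFD. The same ratio ran from 1.21 (Plin3, WT HFD) to 2.36 (Plin2, Adn-Lpin1-/- HFD) for the other genes. Diet did not pass the test for Plin4 in either genotype. HFD livers had a log2 fold change of 0.65 over LFD livers in WT (95% interval 0.821-fold to 3.02-fold, edgeR adjusted p = 0.508) and 0.31 in Adn-Lpin1-/- (0.659-fold to 2.33-fold, adjusted p = 0.778).

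Of the perilipin genes, 3 lie close together on chromosome 17 and are read from the same strand. Plin4 (ENSMUSG00000002831) covers chr17:56100591-56109803 of GRCm38 on the minus strand in 9 exons, Plin5 (ENSMUSG00000011305) covers chr17:56111601-56117596, and Plin3 (ENSMUSG00000024197) covers chr17:56278962-56290511. Plin4 and Plin5 are separated by 1797 bases, and the Plin3 start site lies 180.7 kb from that of Plin4. Of the 3 genes, only Plin4 was called. Against its log2 fold changes of 2.44 and 2.09, Plin5 had a value of 0.25 with the LFD (edgeR adjusted p = 0.450) and -0.20 with the HFD (adjusted p = 0.531). Plin3 had 0.26 with the LFD (adjusted p = 0.161) and 0.01 with the HFD (adjusted p = 0.967).

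The sequences upstream of Plin4 and Plin5 are shown because of these close neighbours one was called and the other was not. They are from the RefSeq promoter table of build GRCm38.p6, minus strand, for chr17:56109804-56110032 (Plin4) and chr17:56117597-56117798 (Plin5), with bases that lie in annotated exons left out. The capitals mark TATAA in Plin4 and AGGTCA, a single nuclear receptor motif, in Plin5. Plin5 has TATAA too, at 27 bases before its start, among the bases left out here.
Plin4: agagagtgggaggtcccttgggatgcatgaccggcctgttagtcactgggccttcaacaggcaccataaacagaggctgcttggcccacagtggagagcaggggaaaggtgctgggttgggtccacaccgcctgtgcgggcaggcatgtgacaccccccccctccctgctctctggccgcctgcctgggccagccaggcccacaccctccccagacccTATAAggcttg
Plin5: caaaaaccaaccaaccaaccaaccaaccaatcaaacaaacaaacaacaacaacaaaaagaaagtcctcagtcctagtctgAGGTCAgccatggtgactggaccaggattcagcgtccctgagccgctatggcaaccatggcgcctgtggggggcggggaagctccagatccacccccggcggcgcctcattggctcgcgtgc
In a window from 250 bases before to 50 bases after each start, 5 kinds of match were sought on both strands. They were AGGTCANAGGTCA exactly or with 1 mismatch (the direct repeat bound by PPAR and RXR, which contains the single motif), AGGTCA alone, ACGTG (the core of the hypoxia response element) and TATAA. The direct repeat was in none of the windows of the 6 genes, as an exact match (0.0396% of 32851 promoters) or with 1 mismatch (0.554%). At such low shares, no match in 6 genes was likely beforehand. Sites further than 250 bases upstream, or with more mismatches, were not sought, and binding by PPAR was not tested. AGGTCA was found at Plin2, Plin5 and Hsd17b13 (16.3% of promoters), ACGTG at Plin2 and Hilpda (19.6%), and TATAA at Plin4, Plin5 and Hilpda (24.9%). No match was found at Plin3, and that of Plin4 was TATAA at 32 bases before its start.

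Of 14 tested protein-coding genes in the stretch around Plin4, Plin5 and Plin3, the others called on both diets were Chaf1a and Uhrf1 at its ends, both used in DNA replication and chromatin assembly. They were named after their values were seen. Lrg1, beside Plin5, had log2 fold changes of -0.20 and -0.13 and was not called on either diet. Hdgfl2 runs in the opposite direction and shares 6 exon bases with Plin4, of the 5777 exon bases of Plin4. The sources used here do not say whether the libraries or the counting kept strand. Hdgfl2 was not called (LFD log2 fold change 0.21, edgeR adjusted p = 0.0621, HFD log2 fold change 0.16, adjusted p = 0.139).

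**Figure D2:**
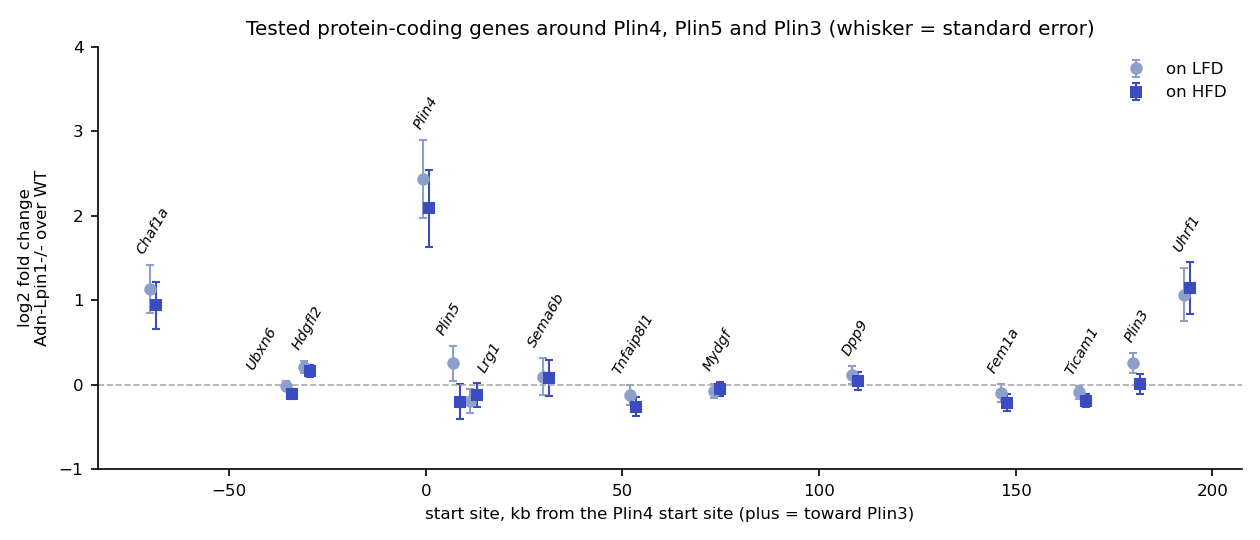
Log2 fold change of Adn-Lpin1-/- over WT (vertical, whisker = standard error, n = 5 mice per group) for the 14 tested protein-coding genes, against the distance of each start site from that of Plin4 in kb (horizontal). Plin4 stands at 2.44 on the LFD (circles) and 2.09 on the HFD (squares), while its neighbours Hdgfl2, Plin5 and Lrg1 lie between -0.20 and 0.25.

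Plin2 (ENSMUSG00000028494, chr4:86648386-86670060, minus strand) was the most abundant perilipin in every mouse and was not called in any comparison. On the LFD it was 455, 562, 484, 530 and 691 CPM in the WT livers and 425, 704, 738, 715 and 759 CPM in the Adn-Lpin1-/- livers. In all, 4 Adn-Lpin1-/- mice lay above all WT mice and the other lay below all of them. The log2 fold change was 0.30 (standard error 0.21, 95% interval 0.907-fold to 1.66-fold, edgeR adjusted p = 0.371). On the HFD it was 458, 381, 486, 578 and 443 CPM in WT and 703, 611, 602, 298 and 322 CPM in Adn-Lpin1-/- livers. Here 3 Adn-Lpin1-/- mice lay above every WT mouse and 2 lay below every WT mouse, so that the means, 469 ± 71.9 and 507 ± 185 CPM, hid a wide spread. The log2 fold change was 0.11 (95% interval 0.799-fold to 1.46-fold, edgeR adjusted p = 0.745), and it was -0.03 without mouse 1 of Adn-Lpin1-/- HFD.

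Plin3 was not called in any comparison, and the ranges of its 4 groups all overlapped. It was 55.3 ± 12.8 CPM (range 44.1 to 76.4) for WT and 66.3 ± 8.10 (59.7 to 80.0) for Adn-Lpin1-/- mice fed the LFD, and 59.7 ± 4.31 (54.6 to 66.1) for WT and 60.1 ± 6.90 (50.7 to 67.9, n = 5 each) for Adn-Lpin1-/- mice fed the HFD. In WT LFD, mouse 5 at 76.4 CPM stood above the other mice, which lay between 44.1 and 57.6. The genotype difference on the LFD, 1.20-fold (95% interval 1.00 to 1.43, edgeR adjusted p = 0.161), was called without that mouse (log2 fold change 0.40, adjusted p = 0.0108) and with voom (adjusted p = 0.0394). On the HFD the difference was 1.01-fold (95% interval 0.845 to 1.20, adjusted p = 0.967), and its sign changed in 18 of 31 alternatives.

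Plin5 was 78.0 ± 14.1 CPM for WT and 92.8 ± 20.4 for Adn-Lpin1-/- mice fed the LFD, and 71.9 ± 24.3 for WT and 62.6 ± 14.4 (n = 5 each) for Adn-Lpin1-/- mice fed the HFD, and it was not called by genotype. Its largest difference was between the diets in Adn-Lpin1-/- mice. In these mice it was 99.5, 77.5, 107, 114 and 66.0 CPM on the LFD and 56.5, 56.0, 76.7, 78.4 and 45.5 CPM on the HFD. In all, 3 LFD mice lay above all HFD mice, and the others fell among them. The level on the HFD was 1.48-fold lower (log2 fold change -0.57, standard error 0.21), which did not pass the test (edgeR adjusted p = 0.167). In WT mice the diets differed by a log2 fold change of -0.12 (95% interval 0.683-fold to 1.25-fold, adjusted p = 0.835).

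Plin1 lies outside the 6 genes and was too low to test. It had 0 counts in all 5 Adn-Lpin1-/- LFD livers, which allows up to 0.0107 CPM over the group (a limit of 3 counts, for counting error only). The pool of the same group had 3 counts, 0.0439 CPM, above that limit. Any other mouse had at most 5 counts. Adipoq, a defining adipocyte marker, had at most 8 counts in an Adn-Lpin1-/- LFD mouse and at most 4 in an Adn-Lpin1-/- HFD mouse, and the highest level of any group, 4.32 CPM, was in a WT LFD mouse. The paper reports reduced Adipoq expression in adipose tissue of Adn-Lpin1-/- mice on both diets. The level of Adipoq in liver therefore cannot compare adipocyte RNA between the genotypes. Lep had at most 4 counts in any mouse. Retn, another adipocyte marker, had 0 counts in all WT LFD mice and 2 to 6 in Adn-Lpin1-/- LFD mice. In both HFD groups Retn had 0 to 6 counts. The summed level of 12 adipocyte markers was 2383 to 3462 CPM for WT and 2154 to 4445 for Adn-Lpin1-/- mice fed the LFD, and 2685 to 3980 for WT and 3832 to 5289 for Adn-Lpin1-/- mice fed the HFD, most of it from Car3, which liver also expresses. Of the 8 that were tested, Cfd (adipsin, log2 fold changes 3.76 and 3.81) and Fabp4 (a fatty acid-binding protein, 1.07 and 0.89) rose on both diets, Nnat rose on the HFD (0.88) and Adrb3 fell on the LFD. That is 3 of 8 on either diet, where 14.4% (LFD) and 18.6% (HFD) of all tested genes were called.

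**Figure D3:**
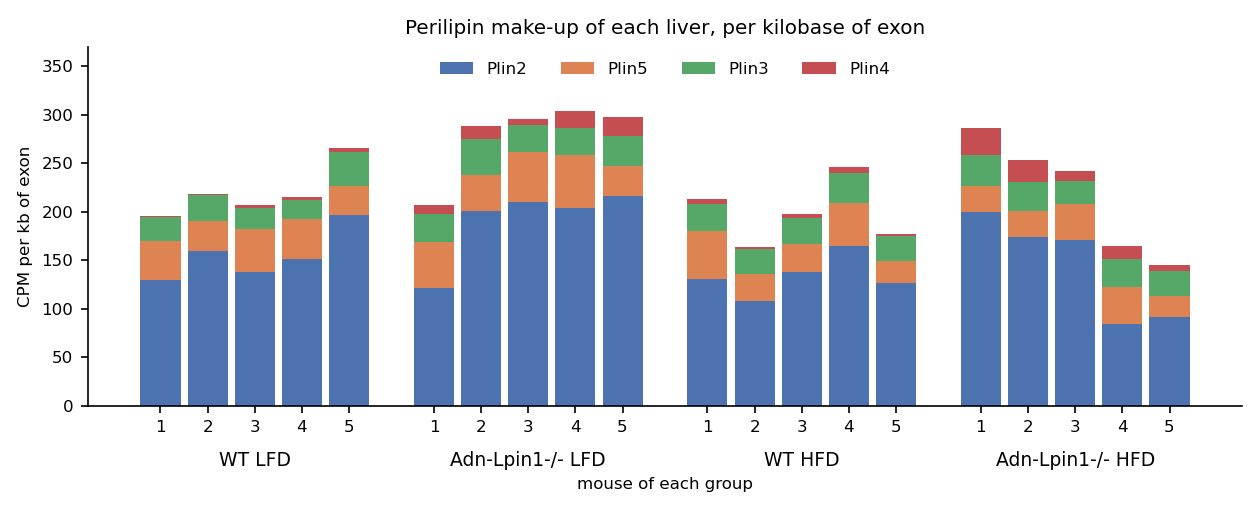
Stacked level in CPM per kilobase of exon of Plin2, Plin5, Plin3 and Plin4 in each of the 20 livers (1 bar per mouse, linear axis from 0). Plin2 makes up most of each bar, and the Plin4 segment is thicker in Adn-Lpin1-/- livers, at a mean of 4.63% against 1.08% on the LFD and 7.09% against 1.82% on the HFD.

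Per kilobase of exon, the 4 perilipins together came to 220 ± 26.7 CPM for WT and 279 ± 40.5 for Adn-Lpin1-/- mice fed the LFD, and 200 ± 32.2 for WT and 218 ± 60.4 for Adn-Lpin1-/- mice fed the HFD. Plin2 held a mean share of 70.0%, 67.8%, 67.1% and 64.8% of this sum in the same order. The Plin4 share ran from 0.434% to 1.45% for WT and 1.84% to 6.50% for Adn-Lpin1-/- mice fed the LFD, and 0.801% to 2.57% for WT and 4.23% to 9.73% for Adn-Lpin1-/- mice fed the HFD. With the exon lengths of the files, the level of Plin4 per kilobase was below that of Plin3 in all 20 mice. Plin2 was above Plin5 in 20 of 20 mice. Plin5 was above Plin3 in 15 of 20 mice, and their order did not hold in Adn-Lpin1-/- HFD, where it did in 2 of 5. Both orders depend on the exon length of Plin3, which is 2159 bases in the files and 3786 in GENCODE vM21. With the longer one, the mean of Plin3 in WT LFD was 14.6 rather than 25.6 CPM per kilobase, Plin5 was above Plin3 in 20 of 20 mice, and Plin4 was above Plin3 in 4 Adn-Lpin1-/- mice, 2 on each diet.

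Hsd17b13 (ENSMUSG00000034528, chr5:103955440-103977410, minus strand) had a level per kilobase close to that of Plin2. It was above Plin2 in 12 of 20 mice, and among the 13052 genes it ranked 331 and Plin2 ranked 356 by mean level per kilobase. Plin5 ranked 1275, Plin3 1568, Plin4 3888 and Hilpda 9547. The level of Hsd17b13 was 342 ± 53.5 CPM (range 291 to 421) for WT and 401 ± 68.7 (301 to 474) for Adn-Lpin1-/- mice fed the LFD, and 352 ± 65.0 (281 to 456) for WT and 350 ± 30.5 (326 to 401) for Adn-Lpin1-/- mice fed the HFD. All 4 ranges overlapped. The genotypes differed by 1.17-fold on the LFD (95% interval 0.969 to 1.42, edgeR adjusted p = 0.265) and by 0.994-fold on the HFD (0.822 to 1.20, adjusted p = 0.969). Hsd17b11, a related droplet enzyme 12352 bases away, was not called either (log2 fold change 0.07 on the LFD and 0.19 on the HFD).

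Hilpda (ENSMUSG00000043421, chr6:29272488-29275446, plus strand) had the lowest mean level of the 6 per kilobase and rests on 30 to 152 counts per mouse. On the LFD it was 1.36, 1.82, 0.893, 1.28 and 0.961 CPM in WT livers and 1.46, 2.28, 2.17, 2.92 and 1.46 CPM in Adn-Lpin1-/- livers. The highest WT mouse lay among the Adn-Lpin1-/- mice and the other 4 lay below all of them. The difference was 1.62-fold (95% interval 1.14 to 2.30, log2 fold change 0.69, standard error 0.24) and just missed the threshold (edgeR adjusted p = 0.0611). It passed with DESeq2 (adjusted p = 0.0385), with voom (adjusted p = 0.0449) and without mouse 2 of WT LFD (adjusted p = 0.0309). On the HFD the level was 1.45 ± 0.227 CPM in WT and 1.59 ± 0.459 in Adn-Lpin1-/- livers (log2 fold change 0.13, 95% interval 0.777-fold to 1.55-fold, edgeR adjusted p = 0.735).

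None of the 6 genes passed the threshold by diet. In WT mice 0 of 6 were called between the HFD and the LFD by edgeR, DESeq2 or voom, and none had an unadjusted p under 0.05, where 1.1% of all tested genes were called. In Adn-Lpin1-/- mice 0 of 6 were called by the same 3 tools, where 2.46% of all tested genes were called, and only Plin5 had an unadjusted p under 0.05. The groups overlapped for all 6 genes in both diet comparisons, while they did not for 3.73% and 4.06% of all tested genes. In Adn-Lpin1-/- mice the HFD value was the lower one for 5 of the 6 genes, with log2 fold changes of -0.40 for Plin2, -0.14 for Plin3, -0.57 for Plin5, -0.19 for Hsd17b13 and -0.37 for Hilpda, none of which passed.

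The log2 fold change by genotype was lower on the HFD than on the LFD for all 6 genes, with differences from -0.18 (Plin2) to -0.56 (Hilpda), and no such difference passed the test (edgeR adjusted p from 0.789 to 0.951). None of the 6 had an unadjusted p under 0.05, DESeq2 and voom called none of them, and edgeR called 0.0% of all tested genes in this comparison. The median log2 fold change by genotype over the 6 genes was 0.28 on the LFD and 0.06 on the HFD, against 0.01 and 0.00 over all tested genes.

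**Figure D4:**
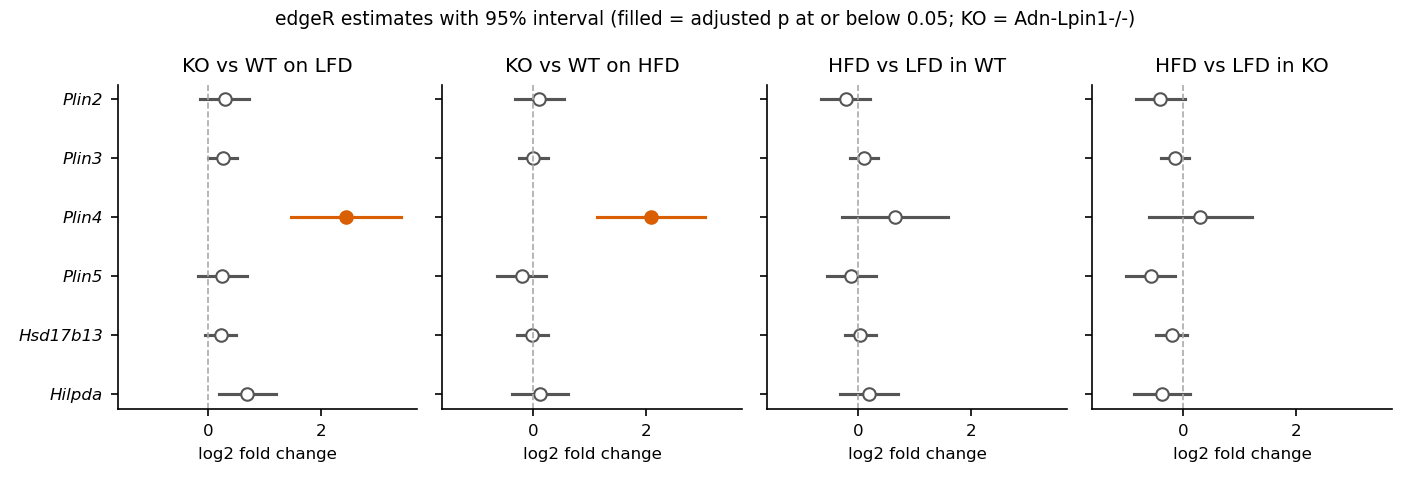
Log2 fold change of each gene from edgeR, with a 95% interval derived from its test statistic, in the 4 comparisons between groups of 5 mice (KO stands for Adn-Lpin1-/-). The filled points are those called, Plin4 at 2.44 for the LFD and 2.09 for the HFD, and every other point is open.

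Of 32 other lipid droplet proteins, 31 were tested. On the LFD 3 rose in Adn-Lpin1-/- livers (Cidea, Cidec and Fitm1) and 1 fell (Dgat2), which is 4 of 31 where 14.4% of all tested genes were called, and the median log2 fold change over the list was 0.16. On the HFD 3 rose (Cidea, Cidec and Bscl2) and 2 fell (Hsd17b7 and Nsdhl), which is 5 of 31 where 18.6% of all tested genes were called, and the median was 0.02. Neither share was above that of all tested genes. Cidec, which fuses droplets into larger ones, had a range of 7.22 to 18.6 CPM in WT LFD and 24.9 to 114 in Adn-Lpin1-/- LFD, and a log2 fold change of 2.74 (edgeR adjusted p = 0.00241). On the HFD its ranges were 6.63 to 17.5 and 14.8 to 133 CPM, which overlapped, with a log2 fold change of 2.88 (edgeR adjusted p = 0.00159). Cidea, of the same family, had at most 4 counts in any WT mouse and from 6 to 2515 in Adn-Lpin1-/- mice, so the extent of its rise depends on very few WT counts. No WT mouse exceeded 0.0986 CPM of Cidea, so it passed the limit on low counts only through Adn-Lpin1-/- livers. Its place among the genes that rose on both diets rests on that.

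Fitm1, a protein of the endoplasmic reticulum that helps droplets form, was 23.2 ± 11.1 CPM in WT LFD and 48.4 ± 15.0 in Adn-Lpin1-/- LFD (log2 fold change 1.06, edgeR adjusted p = 0.0374). On the HFD its log2 fold change was 0.76 (adjusted p = 0.113). Hsd17b7 and Nsdhl, enzymes of cholesterol synthesis that are also found on droplets, fell on the HFD by 0.59 and 1.25 on the log2 scale (adjusted p = 0.0186 and 0.00477). On the LFD their values were 0.21 and 0.18 (adjusted p = 0.427 and 0.698). Between the diets, Pnpla3, a droplet lipase relative, was lower on the HFD in both genotypes, and Bscl2 (seipin) was higher on the HFD in Adn-Lpin1-/- mice.

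Another list held 16 PPAR target genes outside the 6, which serve fatty acid oxidation and are a usual reference for Plin2, Plin4, Plin5 and Hilpda. Of these 16 genes, 2 rose on the LFD, 1 rose on the HFD and none fell. Over all tested genes 14.4% and 18.6% were called, and 6.27% and 9.87% were called higher. These few calls do not set the list apart from all tested genes. Pdk4, which turns off glucose oxidation, rose from 2.64 ± 0.873 to 11.1 ± 7.95 CPM on the LFD (log2 fold change 2.07, edgeR adjusted p = 0.0212) and had a log2 fold change of 1.91 on the HFD (adjusted p = 0.0259). Vnn1, a pantetheinase, rose on the LFD (log2 fold change 1.36, adjusted p = 0.0188) and had 0.66 on the HFD (adjusted p = 0.212). The log2 fold change was positive for 15 of the 16 genes on the LFD and for 11 on the HFD. The median of the list was 0.25 on the LFD and 0.15 on the HFD, against 0.01 and 0.00 over all tested genes.

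Of 10 tested hypoxia-inducible genes, a usual reference for Hilpda, 1 rose on the LFD, where 14.4% of all tested genes were called, and 2 rose and 1 fell on the HFD, where 18.6% were called. Adm (adrenomedullin) rose on both diets, by log2 fold changes of 0.92 (edgeR adjusted p = 0.0327) and 0.84 (adjusted p = 0.0368). Slc2a1, a glucose transporter, rose on the HFD (log2 fold change 0.59, adjusted p = 0.00412) and had 0.08 on the LFD. Bnip3, a mitophagy receptor, fell on the HFD (log2 fold change -0.38, adjusted p = 0.0375) and had -0.17 on the LFD (adjusted p = 0.383).

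Markers of other liver cells were called in part, against a genotype background of 14.4% of all tested genes with the LFD and 18.6% with the HFD. Of 12 stellate cell markers 6 rose on the LFD, and on the HFD 4 rose (Col1a1, Col3a1, Pdgfrb and Acta2) and 1 fell (Hgf). Col1a1, Col3a1 and Acta2, genes of collagen and contractile fibres, rose on both diets. Their log2 fold changes were 2.85, 1.94 and 1.48 on the LFD and 2.27, 1.60 and 1.15 on the HFD. Their groups overlapped on the HFD, and so did those of Acta2 on the LFD. Their list had a summed level of 113 to 213 CPM for WT and 217 to 464 for Adn-Lpin1-/- mice fed the LFD, and 204 to 279 for WT and 226 to 480 for Adn-Lpin1-/- mice fed the HFD. Of 10 macrophage markers 1 rose on the LFD and 7 rose on the HFD, with summed levels of 116 to 214, 146 to 292, 142 to 181 and 186 to 434 CPM in the same order of groups. Gpnmb, a marker of lipid-laden macrophages, rose by log2 fold changes of 2.37 and 3.21, and its groups overlapped on both diets. It had at most 15 counts in a WT LFD mouse and 22 in a WT HFD mouse. No WT mouse reached 1 CPM, so it passed the limit on low counts only through Adn-Lpin1-/- livers. The extent of its rise depends on few WT counts. Of 8 hepatocyte markers 1 fell on the LFD (Serpina1a) and 4 on the HFD (Alb, Apoa1, Cps1 and Serpina1a). Their summed levels were 105800 to 113000, 76680 to 102100, 95230 to 123200 and 80180 to 106600 CPM in the same order of groups. Of 7 neutrophil and lymphocyte markers 1 was high enough to test and was not called, and none of the groups had a summed level above 7.31 CPM. With the LFD the macrophage and hepatocyte counts, 1 of 10 and 1 of 8, were near the share of all tested genes. On that diet the log2 fold change was positive for all 10 macrophage markers (median 0.43) and for 2 of 8 hepatocyte markers (median -0.19). The median over all tested genes was 0.01. The part of these cells in the difference of Plin4 was not tested.

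Mouse to mouse, the 6 genes did not rank the livers alike. Mouse 5 of WT LFD was the highest of its group for 4 of the 6 genes and the lowest for Plin5, and mouse 2 of WT HFD was the lowest of its group for 4. As a description over 20 mice that share libraries between the genes, Pearson correlations of the deviations from group means ran from -0.29 (Plin3 with Plin5) to 0.49 (Plin2 with Plin4). Plin4 and its neighbour Plin5 had 0.28. By the same measure over all tested genes, those most like Plin4 were Slc16a7 (0.92), a monocarboxylate transporter, Pex11a (0.91), a peroxisome division factor, and Acot2 (0.90), a mitochondrial acyl-CoA thioesterase. Those most like Plin2 were Hebp2, Gm12551 and Ctsd (0.90 each), those most like Plin3 Sgtb, Cep164 and Man2b2 (0.83 to 0.86), and those most like Plin5 Pxmp4, Wbp1l and Slc25a34 (0.85 to 0.87). Hsd17b13 was followed by Lamp1 (0.88), Rpia and Ctsz, and Hilpda by Lrrc14 (0.80), Gm16001 and Wdr5b.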

How the data were processed

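Liver poly-A RNA of 20 single mice and of 4 pools was sequenced. The authors aligned reads to GRCm38 with STAR 2.5.1a and counted uniquely aligned, unambiguous reads on Ensembl genes with featureCounts 1.4.6-p5. For each gene and library the authors deposited a raw count, a CPM and an RPKM. All values here were computed from the deposited counts. The deposited CPM and RPKM were used only for their range and for the exon length they imply. Gene symbols came from GENCODE vM21 (97.5% of genes).

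The 355 rRNA genes were left out, and 13052 genes that exceeded 1 CPM in 4 or more single-mouse libraries were tested. The 4 group means were fitted together with TMM scaling and edgeR 4.0.16 in R 4.3.3 (quasi-likelihood test, Benjamini-Hochberg adjustment). Standard errors were derived as the absolute log2 fold change over the square root of the F statistic. The 95% intervals were t intervals from these standard errors, with the moderated degrees of freedom of edgeR. Per the labels each group has 5 single mice and 1 pool of mice 1 to 5, whereas the paper gives n = 6 per group. From its label the pool was taken as a repeat of the same mice, and it stayed out of the tests. Single mice are separate animals. Every deposited library differs from every other in the counts of at least 20459 genes.

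Alternatives were DESeq2 1.42.0 (Wald test, or its size factors in edgeR), voom with quality weights (limma 3.58.1), the pools as sixth libraries, and voom and the pools together. Others were 2 other limits on low counts, ribosomal protein and mitochondrial genes left out, and a fit of the compared groups alone. The rest were a block for the replicate number, a GC content correction, another exon length, and each mouse left out. The tests were checked first on simulated counts. Correlations used log2(CPM + 0.5). Python 3.11.15, numpy 2.4.6, pandas 2.3.3, scipy 1.17.1 and matplotlib 3.10.9 served for the rest.

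The 6 genes and all lists were chosen with earlier results of these data known. Named genes were the 6 genes, Plin1, some of their nearest genes, the list genes with the largest called change by genotype (5 of the droplet list, 3 of each other list) and the 3 genes most like each of the 6. Genes behind a count of 5 or fewer, and Adipoq, Lep, Retn, Car3, Chaf1a and Uhrf1, were named after their values were seen. Promoter sequences were those of all 6 genes in the RefSeq table. Protein sequences were not used here.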

Additional observations from a re-analysis of the deposited data

Results flagged for a closer look

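Plin2 in mouse 1 of Adn-Lpin1-/- LFD, at 425 CPM, stood far below the other 4 mice of its group, the next of which was at 704 CPM. The gap made up 0.836 of the whole range of the group, more than is usual for 5 values. The same mouse was the lowest of its group for Hsd17b13 as well. For Hilpda it was level with mouse 5, at 1.458 against 1.459 CPM. It was not the lowest for Plin3, Plin4 or Plin5. Chance alone picks out about 1 in 20 groups in this way, and 24 groups of 5 mice (6 genes in 4 groups) were looked at. Without this mouse the log2 fold change of Plin2 by genotype on the LFD was 0.42, the highest of its alternatives, and it was not called.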

How the results depend on the processing

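Plin4 was called by genotype on both diets in all 31 alternatives, with log2 fold changes of 2.23 to 2.64 on the LFD (adjusted p from 1.86e-05 to 0.00652) and 1.80 to 2.34 on the HFD (2.45e-05 to 0.0153). With Plin4, the number of the 6 genes called on the LFD was 2 with DESeq2's Wald test, 3 with voom, 2 with the pools as sixth libraries, 4 with both voom and the pools, and 1 to 2 with a mouse left out. It was 2 without mouse 2 of WT LFD or mouse 1 or 5 of Adn-Lpin1-/- LFD (Hilpda) and without mouse 5 of WT LFD (Plin3). Hilpda on the LFD was called in 7 of 31 alternatives (adjusted p from 0.000985 to 0.159). Between the diets in Adn-Lpin1-/- mice, 1 of the 6 genes was called with the pools (Plin5) and 2 with voom and the pools (Plin5 and Plin2). Since the pools repeat the RNA of mice already in the fit, they add no animals.

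The replicate numbers did not pair the mice, as the deviations of mice with the same number correlated by -0.415 to 0.281. With the replicate block, 1 of the 6 genes was called between the diets in Adn-Lpin1-/- mice (Plin5, log2 fold change -0.56, adjusted p = 0.0277) and the number called was as before in the other comparisons. Hsd17b13 by genotype on the HFD was 0.0108 with the block.

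Changes of sign occurred only among values near 0, none of them called. For Plin3 by genotype on the HFD the value was -0.0039 with voom, -0.0143 with the pools, -0.0418 with both, -0.0024 with no limit on low counts, -0.0177 with the default limit of edgeR, -0.0282 with the GC correction, and -0.0376 to 0.065 with a mouse left out. For Hsd17b13 on the HFD it was 0.0346 with voom, 0.0082 with voom and the pools, 0.0312 with the GC correction, and -0.0804 to 0.0885 with a mouse left out. Leaving out a mouse also gave -0.0335 to 0.24 for Plin2 by genotype on the HFD, and between the diets in WT mice -0.28 to 0.0057 for Plin5 and -0.062 to 0.13 for Hsd17b13. The cause was not tested. Over all tested genes, the number called ran from 1208 to 4177 (1877 in the report's fit) by genotype on the LFD, 1477 to 4763 (2434) on the HFD, 55 to 1927 (144) by diet in WT, 123 to 2327 (321) by diet in Adn-Lpin1-/- mice, and 0 to 190 (0, with 938 at an unadjusted p under 0.05) for the difference of the genotype effects. The low counts of Hilpda limit its precision.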

Other observations

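Each pool fell within the range of the mice it was made from for Plin2, Plin3, Plin4, Plin5 and Hsd17b13 in all 4 groups. For Hilpda the pool fell outside in 3 of the 4, at 0.770 CPM (21 counts) in WT LFD below mice of 0.893 to 1.82 CPM, at 1.82 CPM (96 counts) in WT HFD above mice of 1.17 to 1.76, and at 2.21 CPM (159 counts) in Adn-Lpin1-/- HFD above mice of 1.04 to 2.15.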
